A study of Mus musculus with 3 samples.

Results

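Gene expression in the dental papilla of the mouse molar was compared between postnatal day 3 (P3) and embryonic day 16 (E16). The comparison uses 2 of the 3 arrays in the series, 1 for each stage, and leaves out the array of embryonic day 18 (E18). Both samples are papillae of ICR mice, an outbred stock, and no genetic change or treatment is named in the labels. Lower first molar germs were treated with enzyme to free the papillae, and RNA from more than 20 papillae was pooled for each array. The RNA was amplified in 2 labelling cycles into biotin-labelled cRNA. For each of 45101 probe sets, except 64 controls, the P3 value was divided by the E16 value. With 1 pooled sample per stage a difference has no replicate check, and no p-value or standard error is given. Precision is limited by the number of arrays, and how far a gene's probe sets agree is the one check on measurement that the design offers.

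The dental papilla is the neural crest-derived mesenchyme enclosed by the enamel organ epithelium of a tooth germ. Its outer cells stop dividing, elongate into odontoblasts and secrete dentin, a mineralised matrix of type I collagen, proteoglycans and acidic phosphoproteins, and its inner cells become the pulp. In the mouse first molar the earlier stage precedes dentin and the later one falls in the period of dentin and enamel deposition, so the comparison addresses which genes differ in net between a growing and a matrix-secreting papilla. In pooled tissue, fewer cells of a type and less RNA per cell cannot be told apart.

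The deposited values are ratios, from which a signal per array was recovered, in units of the P3 array. Recovered signals had nearly equal medians, 82.0 on the E16 array and 82.3 on the P3 array. A recovered signal may be understated by a common factor, which leaves the ratio between the stages as it is. The median of all recovered signals, 82.0, served as a floor. An understated signal may fall under this floor. That can change which probe sets are kept and the size of a difference set by the floor. A probe set was measured when at least 1 of the arrays reached the floor, and a signal under the floor was set to it, so that its difference is a bound, written as "at least". This held for 25115 probe sets, 5136 of them with 1 array under the floor; past 2-fold, 1516 of these had the higher signal at P3 (6.04%) and 3613 the lower (14.4%). A gene's value is the median log2 difference (P3 minus E16) over its measured probe sets, and a gene is called higher or lower here at 2-fold. The 18 spike-in probe sets, added at hybridisation, had a median ratio of 1.04 (0.742 to 1.2). The control probe sets along actin had P3 over E16 ratios of 1.09 at the 3′ end, 0.686 in the middle and 0.445 at the 5′ end. Those along Gapdh had ratios of 0.557 at the 3′ end, 0.769 in the middle and 1.57 at the 5′ end, where the 3′ probe set was under the floor on both arrays (51.3 and 28.6), so that Gapdh gives no usable order.

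Among the 12220 measured genes 658 passed 2-fold with a higher level at P3 (5.38%) and 1508 with a lower one (12.3%). Bounds made up 230 of the higher and 245 of the lower genes. At 4-fold the counts came closer, 125 higher and 178 lower. At 8-fold the order turned, with 29 higher and 19 lower, and at 16-fold there were 8 higher and 0 lower. The lower genes were therefore more numerous and the higher genes reached further. The middle of the distribution lay below 0, with a median of -0.16, quartiles of -0.62 and 0.24 and 5th and 95th percentiles of -1.45 and 1.05. Higher genes were 30.4% of those past 2-fold. After quantile normalization, which forces the arrays to the same distribution and moved the median of all genes to 0.0, they were 49.9%. Scaling the arrays to the same median signal left them at 30.2%, and setting the median of all genes to 0 gave 44.7%. The excess of lower genes therefore held with median scaling and was gone after quantile normalization.

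**Figure D1:**
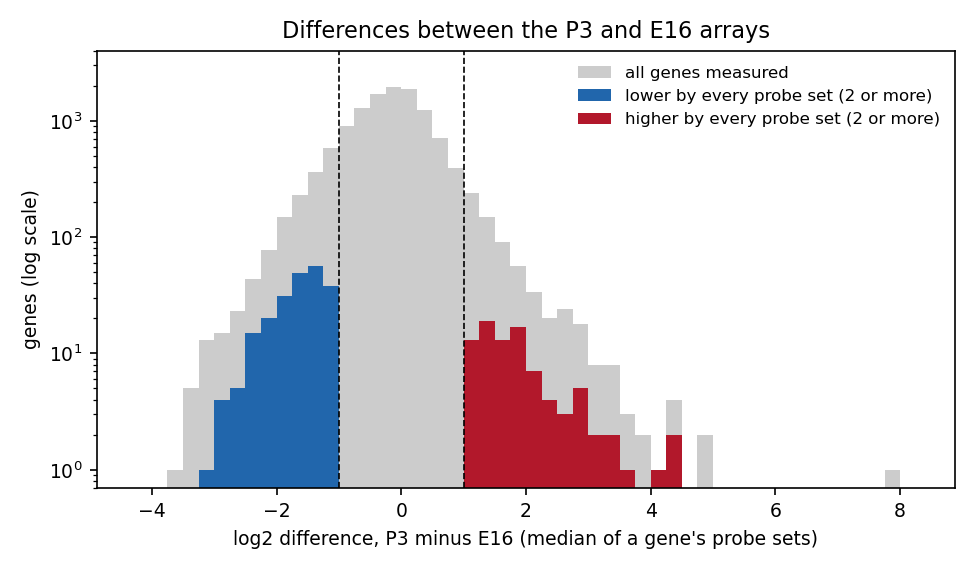
Histogram of the log2 difference between P3 and E16 (x axis) over 12220 genes measured, with the number of genes on a log scale (y axis) and dashed lines at 2-fold. Blue and red mark genes with 2 or more probe sets that were all at least 2-fold lower (219 genes) or all higher (89 genes); the grey right-hand tail reaches further than the left-hand one.

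Probe sets of the same gene gave a sense of how far a single value can be trusted. Of the genes measured, 5071 had 2 or more measured probe sets, and 7149 had 1. The pooled SD of probe sets within a gene was 0.63 on the log2 scale, and the median range within a gene was 0.73. The range was over 1 in 34.8% of these genes and over 2 in 5.72%. All probe sets pointed the same way in 57.6%. By every measured probe set, 89 genes were at least 2-fold higher (1.76% of 5071) and 219 were lower (4.32%). Probe sets of a gene share the sample and the array, so this spread misses any error that a whole array shares.

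The agreement grew with the size of the difference. Where the probe set with the higher mean signal, the brightest, was 2-fold higher at P3 (354 genes), another probe set of the gene was 2-fold higher in 40.4%, and where it was lower (1003 genes), another was lower in 39.0%. For log2 differences of 1 to 1.5, the next brightest probe set passed 2-fold the same way in 22.8% of higher and 27.3% of lower genes. For differences of 2 to 3 the shares were 63.6% and 53.4%. Among differences of 3 or more the next brightest followed in 20 of 27 higher genes (74.1%) and 12 of 14 lower genes (85.7%). Across genes, the log2 differences of the brightest and next brightest probe sets had r = 0.53 (Spearman's rho 0.46), a description over genes, which are not independent replicates. A 2-fold difference seen by 1 probe set alone is therefore weakly supported. Where the brightest was past 8-fold, most next brightest probe sets passed 2-fold the same way, though with a smaller difference. Their median log2 difference was 1.68 for higher and -2.19 for lower genes.

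**Figure D2:**
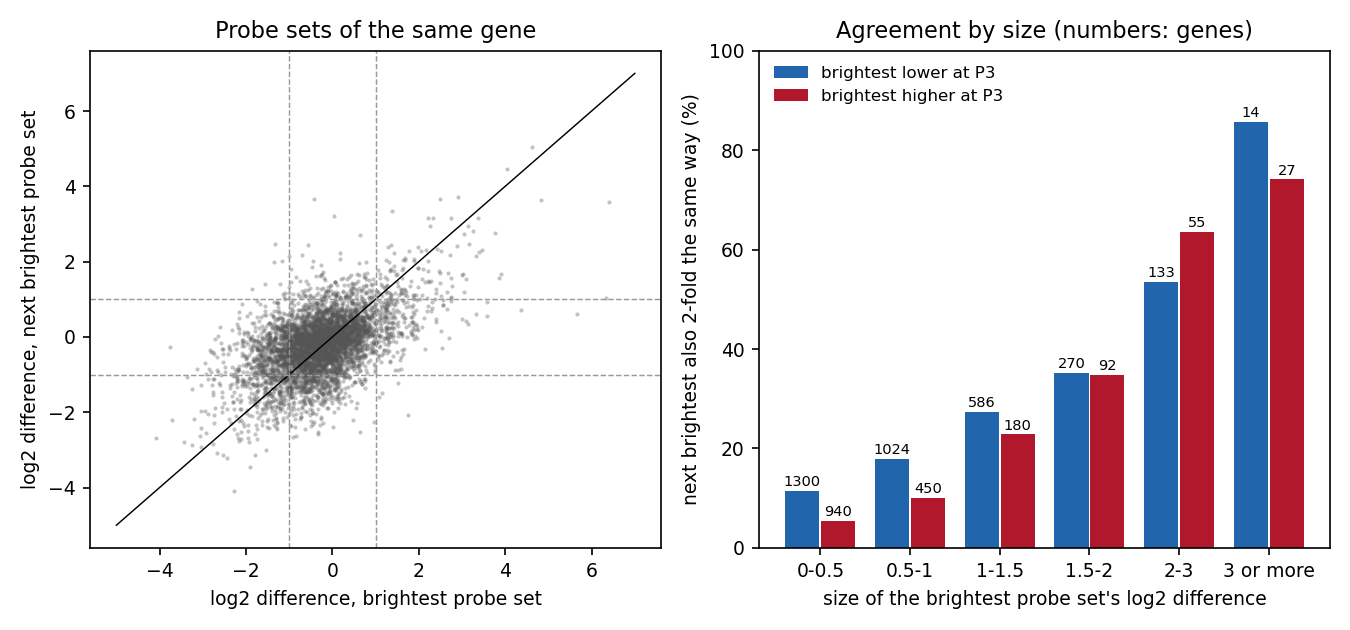
Left: log2 difference of the brightest (x axis) against the next brightest probe set (y axis) of 5071 genes, with the line of equality and dashed lines at 2-fold. Right: the share of genes (%, y axis) whose next brightest probe set also passed 2-fold the same way, by the size of the brightest one's log2 difference (x axis); the share climbs from 11.5% and 5.43% in the smallest class to 85.7% and 74.1% in the largest, for lower and higher genes.

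Among genes with several probe sets, the 15 ranked highest by their least changed probe set included several of matrix and mineralisation, given here before the rest of the ranking. Fibromodulin (Fmod), a small leucine-rich proteoglycan that binds collagen fibrils, had 6 measured probe sets. Its brightest read 184 at E16 and 4526 at P3, and the 6 ranged from at least 6.07-fold to 33.2-fold higher. Clusterin (Clu), a secreted chaperone, read 284 and 4709 by its brightest of 4 probe sets, which ranged from at least 7.34-fold to 23.8-fold. Each measured probe set of both genes was therefore more than 6-fold higher at P3, while the probe sets did not agree on 1 size. Osteoglycin (Ogn), of the same family as fibromodulin, read 723 and 5387 by its brightest probe set and was 7.45-fold and 13.1-fold higher by its 2. Lysyl oxidase (Lox), which cross-links collagen and elastin, read 379 and 3146 and was 8.31-fold higher by that probe set and at least 6.68-fold by another. Dmp1, an acidic matrix protein of dentin and bone, read 15.6 and 782 and was at least 9.54-fold and at least 7.03-fold higher. All 3 had low or moderate signals at E16 and clearly higher ones at P3.

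The same end of the ranking held genes with other functions. The vitamin D receptor gene Vdr read 17.0 at E16 and 907 at P3 and was at least 11.1-fold and at least 4.99-fold higher. Serpinf1, which encodes the secreted collagen-binding protein PEDF, read 955 and 4778 and was 5-fold higher by that probe set and at least 8.93-fold by another. Ccn4, a matricellular protein first known as a Wnt-induced gene, read 127 and 1330 and was 10.5-fold and at least 4.8-fold higher. St8sia6, a sialyltransferase, was 6.74-fold, 6.79-fold and 13.7-fold higher by its 3 probe sets. Parm1, a mucin-like membrane protein, read 126 and 1299 and was 10.3-fold and at least 8.96-fold higher. Gadd45b, a stress-response gene, was at least 4.85-fold and at least 5.71-fold higher, and Ctnnd2, a catenin, 4.46-fold and 10-fold. Hook1, a microtubule linker, was at least 5.06-fold and 5.35-fold higher, and Fam241a 7.72-fold and 8.76-fold. The first in the ranking was Amelx, amelogenin, the main enamel matrix protein, which is made by the epithelium. It read 51.5 and 2340 and was at least 28.5-fold and at least 12.6-fold higher.

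The 15 lowest by the same ranking included several genes of cell division. Bub1b, a kinase of the spindle checkpoint, read 1988 at E16 and 208 at P3 and was 9.55-fold and 7.28-fold lower by its 2 measured probe sets. Prim1, the catalytic subunit of DNA primase, read 1956 and 258 and was 7.59-fold and 5.88-fold lower. Aurkb, the kinase of the chromosomal passenger complex, read 907 and 197 and was 4.61-fold and at least 5.92-fold lower. In these genes both probe sets put the P3 signal well below that of E16. Prc1, which bundles microtubules of the central spindle, was 4.47-fold and 6.81-fold lower, and Timeless, a protein of the replication fork, 4.53-fold and 9.27-fold. E2f1, the transcription factor that drives entry into S phase, read 544 and 65.3 and was at least 6.64-fold and at least 4.18-fold lower. Ipo5, a nuclear import receptor, was 4.32-fold and 4.61-fold lower, and Spata5, a ribosome maturation factor, 4.28-fold, 4.73-fold and at least 5.11-fold. Cdkn2aipnl was 4.58-fold and 6.45-fold lower.

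The other lower genes of this ranking were of varied function. Dkk1, a secreted Wnt antagonist, read 1311 and 226 by its brightest probe set and was 5.8-fold and 8.83-fold lower. Col8a1, a network-forming collagen chain, read 1418 and 173 and was 8.21-fold and 5.34-fold lower. Has2, a hyaluronan synthase, read 550 and 65.5 and was at least 6.7-fold and at least 4.85-fold lower. Emb, an accessory protein of lactate transporters, read 1661 and 199 and was 8.33-fold and at least 6.14-fold lower. Myb, a transcription factor of dividing progenitors, read 1072 and 169 and was 6.33-fold and at least 8.46-fold lower. Hbb-y, the embryonic beta-like globin of red cells, read 675 and 26.0 and was at least 8.22-fold and at least 7.64-fold lower. Both of these probe sets are of a kind that may detect several transcripts. Another probe set of the gene was under the floor on both arrays (3.9 and 5.8).

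**Figure D3:**
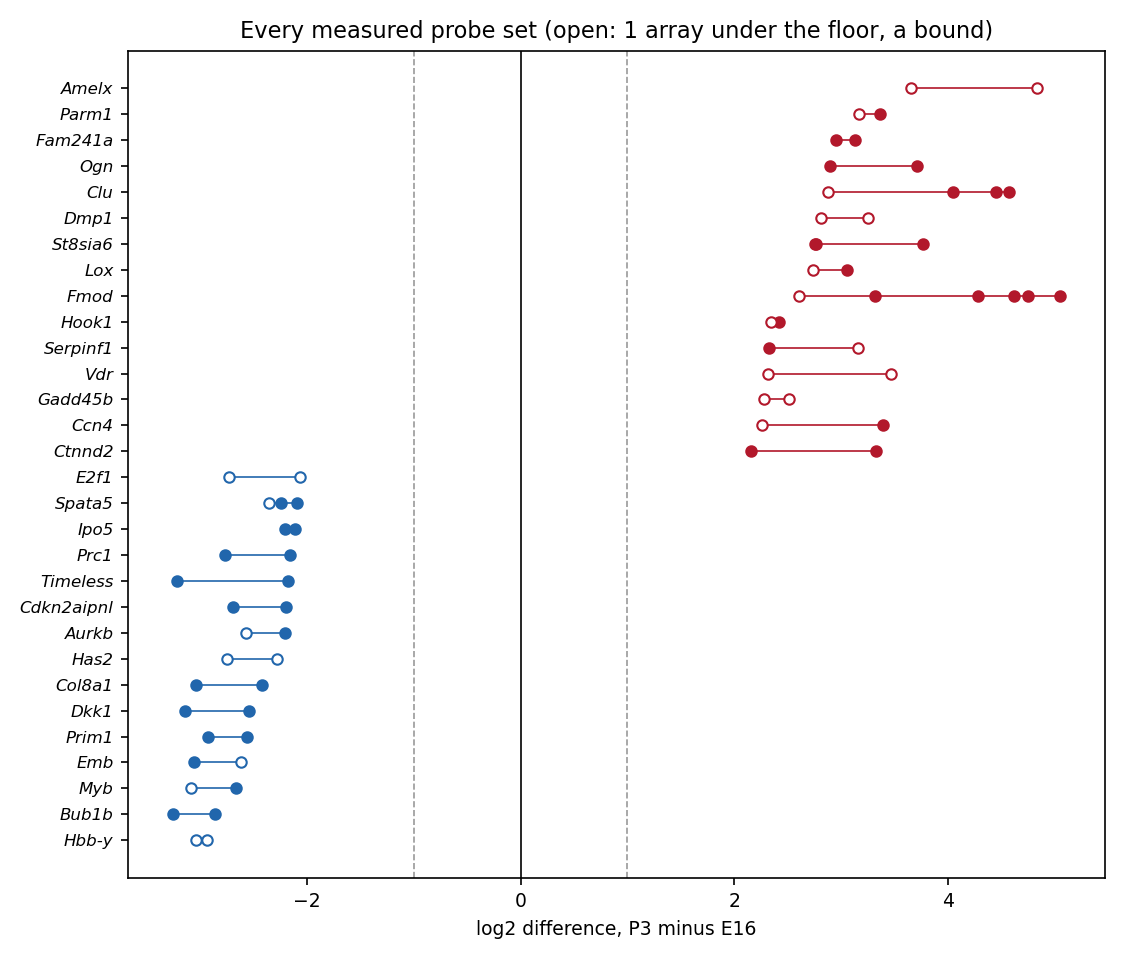
Log2 difference between P3 and E16 (x axis) of every measured probe set of the 15 highest (red) and 15 lowest genes (blue) among those whose 2 or more probe sets all passed 2-fold, ranked by the probe set with the smallest change. Open points are bounds, with 1 array under the floor; Fmod has 6 points from 2.60 to 5.05 and Hbb-y 2 points near -2.93 and -3.04.

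Odontoblast markers were higher at P3 as a group. Of 12 measured, 9 passed 2-fold in that direction and 0 in the other, and their median was 1.76, beside 5.38% higher and a median of -0.16 over all genes. Of these markers 7 reached the floor at E16 and 11 at P3, and the other 5 could not come out lower. The median was 1.12 with probe sets at the floor on both arrays and 0.85 by each gene's least changed probe set, under 2-fold. Their summed signal by brightest probe set was 3438 at E16 and 42028 at P3. Dspp, which encodes the precursor of the main dentin phosphoproteins, had 1 probe set, with 40.8 at E16 and 18982 at P3, and was at least 231-fold higher. Col24a1, a fibrillar collagen chain of mineralising tissue, read 46.4 and 666 and was at least 8.12-fold higher. Alpl, tissue-nonspecific alkaline phosphatase, which frees phosphate for mineral, read 289 and 1060 and was 3.67-fold higher. The intermediate filament gene Nes, nestin, was 1.59-fold and 2.4-fold higher by 2 probe sets, and Sp7, a transcription factor of bone and dentin cells, read 605 and 881, 1.46-fold.

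For 2 well-known odontoblast genes the probe sets did not give 1 size. Col1a1, a chain of type I collagen, was 2.04-fold higher by a probe set that read 1342 and 2734, and at least 81.1-fold by another that read 27.6 and 6650. Both were higher at P3, and no single fold describes the gene. Phex, an endopeptidase that protects mineralisation, was at least 50.6-fold higher by a probe set that read 46.7 and 4148 and at least 1.52-fold by another that read 41.1 and 125. Col1a2, the partner chain, was closer, with 2.27-fold, 3.12-fold and 6.32-fold by 3 probe sets and signals of 875 and 5527 by the brightest.

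The secreted phosphoproteins of dentin and bone (the SIBLING family) went different ways. Beside Dspp and Dmp1, Ibsp, bone sialoprotein, read 1183 at E16 and 335 at P3 by its brightest probe set and was 3.53-fold lower by it and at least 1.56-fold by another. Mepe, a phosphate-regulating member, read 160 and 27.8 and was at least 1.95-fold lower. The genes that handle phosphate were higher or little different, with a median of 0.28. Of 16 measured, 5 were at least 2-fold higher (31.2%, beside 5.38% over all genes) and 0 lower, and 13 reached the floor at E16. Slc20a2, a sodium-phosphate cotransporter, read 509 and 3025 and was 5.94-fold higher by that probe set and 1.8-fold by another. Panx3, a channel of mineral-forming cells, was at least 1.48-fold, 2.33-fold and at least 3.04-fold higher. Fam20c, the kinase that phosphorylates secreted matrix proteins, read 56.8 and 293 and was at least 3.58-fold higher by that probe set and at least 1.31-fold by another.

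Small leucine-rich proteoglycans, which coat and space collagen fibrils, were higher as a family. Of 13 measured, 7 were at least 2-fold higher (53.8%, beside 5.38% over all genes) and 0 lower, with a median of 1.25. At E16 9 reached the floor, and the other 4 could not come out lower. Each of the 4 with several measured probe sets was higher by all of them. Decorin (Dcn) read 401 at E16 and 6018 at P3 and was 15-fold higher by that probe set and at least 3.2-fold by another. Biglycan (Bgn) was 2.26-fold, 2.38-fold and 2.38-fold higher by 3 probe sets, the closest agreement in the family. Lumican (Lum) read 1101 and 3293, osteomodulin (Omd) 530 and 3296 and epiphycan (Epyc) 56.3 and 502, so that they were 2.99-fold, 6.22-fold and at least 6.12-fold higher. Asporin (Aspn) read 136 and 206 and was 1.51-fold higher, short of 2-fold.

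Collagen chains were higher more often than lower, but unevenly. Of 37 measured, 10 were at least 2-fold higher (27.0%) and 3 lower (8.11%), beside 5.38% and 12.3% over all genes, with a median of 0.47. At E16 31 reached the floor, and the other 6 could not come out lower. Of the 17 with several probe sets 4 were higher and 1 lower by all of them. Col23a1, a transmembrane collagen, was 1.83-fold, 4.46-fold and 4.97-fold higher, and Col25a1, another transmembrane chain, read 72.0 and 421 and was at least 5.13-fold higher, though its log2 difference was 0.79 with a floor of 41.0, which lets in dimmer probe sets. The lower chains were Col8a1, Col26a1, which read 1182 and 111 and was 10.6-fold lower, and Col13a1, which read 346 and 130 and was 2.66-fold lower. Col3a1, the main chain of soft-tissue fibrils, differed little, 1.06-fold and 1.16-fold higher by its probe sets. A difference in type I collagen was therefore not shared by the type III chain on these arrays.

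Genes that fold, trim or cross-link collagen did not move as 1 group, with 4 of 30 higher and 4 lower (median -0.08, or 0.10 after quantile normalization). Each share was 13.3%, beside 5.38% higher and 12.3% lower over all genes. Besides Lox, the higher ones were Sparc, a collagen-binding secreted protein (1.09-fold, 6.67-fold and 8.86-fold by 3 probe sets), Pcolce, the enhancer of procollagen C-proteinase (2.77-fold and 4.7-fold), and Loxl4, a lysyl oxidase-like enzyme, which read 79.6 and 227, at least 2.77-fold. The lower ones were Pcolce2 (314 and 60.6, at least 3.82-fold), the procollagen protease Tll1 (260 and 46.2, at least 3.17-fold), the prolyl hydroxylase subunit P4ha1 (775 and 253, 3.07-fold) and the collagen chaperone Serpinh1 (1.98-fold and 2.23-fold by 2 probe sets). The machinery of the endoplasmic reticulum had 6 of 49 genes lower and 0 higher (median -0.22, or 0.11 after quantile normalization), a share of 12.2% beside 12.3% over all genes. Rpn2, a subunit of oligosaccharyltransferase, read 1725 and 389 and was 4.43-fold lower. Hspa5, the chaperone BiP, was 1.22-fold, 1.36-fold and 2.23-fold lower. The direction of both medians therefore depends on the scaling, where those of collagen chains and small leucine-rich proteoglycans do not.

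Matricellular proteins, which signal from the matrix without building it, went both ways, with 6 of 24 higher and 6 lower (median 0.32). Over all genes 5.38% were higher and 12.3% lower, so the equal counts stood further above that share on the higher side. At E16 21 of the 24 reached the floor, and the others could not come out lower. At P3 21 reached it, and the others could not come out higher. Tnc, tenascin C, read 336 at E16 and 4873 at P3 and was 14.5-fold higher by that probe set and at least 2.97-fold by another. Sparcl1 read 109 and 553 and was 5.09-fold higher. In the other direction Smoc2 read 4554 and 599 and was 7.61-fold lower by that probe set and 1.99-fold by another, and Thbs4, a thrombospondin, read 705 and 137 and was 5.15-fold lower. Postn, periostin, read 2533 and 2407, the same within 1.05-fold.

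The hyaluronan list had 4 of 15 higher (26.7%) and 3 lower (20.0%), beside 5.38% and 12.3% over all genes. Its median was -0.15, or 0.01 with the median of all genes set to 0. At E16 11 reached the floor, and the others could not come out lower. Bcan, brevican, a hyaluronan-binding proteoglycan best known from brain, read 226 and 2392 and was 10.6-fold higher by its 1 measured probe set. Cemip, which takes part in breaking hyaluronan down, read 46.9 and 358 and was at least 4.37-fold higher. Among the synthases Has2 was lower as given above, Has3 read 191 and 91.5 (2.08-fold lower) and Has1 80.8 and 184 (at least 2.25-fold higher). Several of these calls depended on the floor. The log2 differences of Has3 and Has1 were -0.22 and 0.17 with a floor of 164.1, and that of Cemip was 0.46 with a floor of 41.0. Elastic fibre and microfibril genes gave 5 of 22 higher (22.7%) and 4 lower (18.2%), with a median of -0.35. Ltbp2, a latent TGF-beta binding protein family member, read 65.7 and 378 and was at least 4.61-fold higher. Emilin3 read 1256 and 316 and was 3.97-fold lower.

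The largest group of lower genes was that of the cell cycle. DNA replication had 33 of 53 measured genes past 2-fold lower (62.3%) and 0 higher, and a median of -1.21. Of 55 genes of mitotic kinases, cyclins and the checkpoint, 41 were lower (74.5%) and 0 higher, with a median of -1.30. Centromere, kinetochore, condensin and cohesin genes had 24 of 47 lower (median -1.07) and DNA repair genes 23 of 44 lower (median -1.08), again with 0 higher in either list. Over all genes 12.3% were lower. At P3 the floor was reached by 51 of the replication, 46 of the mitotic, 39 of the centromere and 41 of the repair genes. The rest could not come out higher. By every measured probe set 10 of 28 replication genes and 13 of 30 mitotic genes were lower, beside 4.32% over all genes with several probe sets.

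In replication, the lower genes covered origin licensing, firing and synthesis. Cdc6, which loads the helicase on origins, read 699 at E16 and 74.1 at P3 and was at least 8.52-fold lower. Cdc7, the kinase that fires origins, read 2746 and 330 and was 8.31-fold lower, and Dbf4, its activator, read 949 and 167 and was 5.68-fold lower. Both members of that kinase complex were thus lower. Mcm7, a helicase subunit, was lower by each of 4 probe sets, 3.26-fold, 4.71-fold, 6.45-fold and 16.9-fold. Mcm5 was lower by all 3 but with little in common, 1.1-fold, 4.81-fold and at least 17.1-fold. Pcna, the sliding clamp, read 1467 and 605 and was 2.43-fold lower. Genes that supply nucleotides were lower too, 17 of 28 with 0 higher (median -1.31). Dut, which removes dUTP, read 2615 and 278 (9.4-fold lower), and Tk1, thymidine kinase, 1026 and 132 (7.76-fold lower). Mthfd2, of mitochondrial one-carbon metabolism, was 3.75-fold and 10.9-fold lower by its 2 probe sets.

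In mitosis, Aurka, the spindle pole kinase, read 1156 and 130 and was 8.9-fold lower. Plk1, a kinase of mitotic entry, read 437 and 20.6 and was at least 5.33-fold lower. Cks2, a small CDK-binding protein, was 3.88-fold and 7.74-fold lower by its 2 probe sets. Cdk1, the kinase that drives mitosis, read 2322 and 648 and was 3.58-fold lower, and Mki67, the proliferation antigen Ki-67, read 2113 and 629 and was 3.36-fold lower. The mitotic genes were lower but mostly still read at P3, where 46 of 55 reached the floor, as all 55 had at E16. Of the centromere genes, Spc24 read 505 and 86.8 (5.82-fold lower), Cenpn was 3.68-fold and 6.53-fold lower and the condensin subunit Ncaph 4.1-fold and 5.1-fold. Of the repair genes, Rad51c read 739 at E16 and was under the floor at P3 (at least 9.01-fold lower), the uracil glycosylase gene Ung 2606 and 420 (6.21-fold) and Brca1 1268 and 243 (5.21-fold). Chromatin genes had 12 of 39 lower and 0 higher (median -0.87). Hmgb3 read 4034 and 680 and was 5.93-fold lower. Uhrf1, which guides DNA methylation to new strands, was 3.83-fold and at least 6.95-fold lower, and Ezh2, the H3K27 methyltransferase, read 3843 and 1014 and was 3.79-fold lower.

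Because the mitotic genes moved together, their promoters were searched for the element known to act in genes of the late cell cycle. This is the cell cycle genes homology region (CHR), searched as TTTGAA or TTTAAA on both strands in the 250 bases before the start, together with the CCAAT box (CCAAT). Of 49 RefSeq promoters (GRCm38.p6) of 44 mitotic genes, 38.8% held both, beside 6.56% of 12586 promoters of the genes measured and 8.78% of all 32851 promoters in the table. A CHR within 60 bases of the start was in 28.6% of the mitotic promoters and in 3.62% and 5.78% of the other sets. These mitotic promoters are those of all measured members, lower or not. Among genes with several probe sets, CHR and CCAAT box were both in 9.09% of promoters of those lower by every probe set. For those higher by every probe set the share was 9.41%. A CHR within 60 bases was in 9.55% and 9.41%, so the motifs did not separate lower from higher genes. An E2F motif, searched as TTTCCCGC, TTTGGCGC or TTTCGCGC, was in 18.9% of 53 replication promoters and 15.9% of the centromere promoters. It was in 2.04% of the mitotic promoters, 2.80% of those of the genes measured and 1.53% of all. A match is a description of the letters, not a binding site, and these arrays hold no reading of factor binding.

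The promoters shown are those of members at least 2-fold lower with 1 RefSeq promoter. The E2F motif or the CCAAT box had to lie in the last 150 bases before the start. In the mitotic promoters the CHR had to lie in the last 60. The mitotic pool here was wider than the mitotic list, with 66 lower members beside 41, and Cenpn is from the centromere list. Shown are the 5 and 4 largest decreases of the 13 and 5 genes that met these conditions. Each is printed 5′ to 3′ on the gene's strand, ending at the base before the start. In the mitotic genes, capitals mark the CHR and the CCAAT box on either strand (the latter reads ATTGG on the other strand). Their positions are chr7:122159285-122159434 (plus strand) for Plk1, chr8:116921590-116921739 (plus) for Cenpn and chr10:69352913-69353062 (minus) for Cdk1. Espl1, the separase that cuts cohesin, lies at chr15:102296143-102296292 (plus) and Cdc20, an activator of the anaphase-promoting complex, at chr4:118437344-118437493 (minus).
Plk1: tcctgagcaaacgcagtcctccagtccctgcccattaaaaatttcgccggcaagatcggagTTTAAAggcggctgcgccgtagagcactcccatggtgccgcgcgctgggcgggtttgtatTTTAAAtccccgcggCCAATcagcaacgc
Cenpn: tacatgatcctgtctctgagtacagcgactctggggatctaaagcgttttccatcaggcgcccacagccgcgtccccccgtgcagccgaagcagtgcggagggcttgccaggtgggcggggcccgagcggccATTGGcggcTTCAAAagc
Cdk1: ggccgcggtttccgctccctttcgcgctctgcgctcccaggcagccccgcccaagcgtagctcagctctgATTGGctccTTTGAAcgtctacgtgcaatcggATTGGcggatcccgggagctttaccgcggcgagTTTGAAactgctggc
Espl1: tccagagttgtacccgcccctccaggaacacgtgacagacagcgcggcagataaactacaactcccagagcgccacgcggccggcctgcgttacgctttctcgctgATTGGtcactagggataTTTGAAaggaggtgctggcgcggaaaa
Cdc20: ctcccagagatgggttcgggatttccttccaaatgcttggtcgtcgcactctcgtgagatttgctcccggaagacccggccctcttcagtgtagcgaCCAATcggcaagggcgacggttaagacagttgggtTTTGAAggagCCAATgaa
The CHR lay within 30 bases of the start at least once in each of these 5 promoters. They had been chosen for a CHR within 60 bases, so a position near the start is partly set by the choice. Espl1 read 285 at E16 and 80.1 at P3 and was at least 3.47-fold lower. Cdc20 was 3.35-fold and 3.44-fold lower by its 2 measured probe sets.

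In the replication genes, capitals mark the E2F motif on either strand. The promoters lie at chr11:98908001-98908150 (plus strand) for Cdc6, chr8:75109359-75109508 (plus) for Mcm5, chr1:191575545-191575694 (minus) for Dtl and chr1:128359706-128359855 (minus) for Mcm6.
Cdc6: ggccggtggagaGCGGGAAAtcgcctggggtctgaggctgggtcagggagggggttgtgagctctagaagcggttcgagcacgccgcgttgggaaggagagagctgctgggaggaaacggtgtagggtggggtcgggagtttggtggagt
Mcm5: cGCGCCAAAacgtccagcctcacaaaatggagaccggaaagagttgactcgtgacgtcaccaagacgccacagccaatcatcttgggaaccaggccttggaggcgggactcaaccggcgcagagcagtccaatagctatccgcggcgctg
Dtl: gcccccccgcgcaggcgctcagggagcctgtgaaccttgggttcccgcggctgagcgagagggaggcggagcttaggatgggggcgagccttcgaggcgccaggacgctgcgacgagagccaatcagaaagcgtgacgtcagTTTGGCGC
Mcm6: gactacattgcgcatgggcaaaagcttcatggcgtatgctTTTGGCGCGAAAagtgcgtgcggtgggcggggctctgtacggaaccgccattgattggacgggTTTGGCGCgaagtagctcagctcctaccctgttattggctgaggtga
Mcm6 carries 3 matches, of which 2 overlap. Dtl, which targets the licensing factor Cdt1 for destruction, was lower by all 5 measured probe sets, from 2.17-fold to 7.36-fold, and Mcm6, a helicase subunit, was 3.28-fold and 4.43-fold lower.

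The regulators that decide on division went both ways. Of 29 measured D-type cyclins, CDKs, E2F factors, CDK inhibitors and their partners, 14 were at least 2-fold lower and 5 higher (median -0.68). The shares were 48.3% and 17.2%, beside 12.3% and 5.38% over all genes. The 5 higher ones were 3 CDK inhibitors, the retinoblastoma gene and 1 cyclin. Cdkn1a, the inhibitor p21, read 180 at E16 and 1798 at P3 and was 9.99-fold higher by its 1 measured probe set. Cdkn1b, p27, read 218 and 536 (2.46-fold higher), and Cdkn1c, p57, read 1524 and 3664 (2.4-fold higher). Rb1 read 623 and 1527 and was 2.45-fold higher. Each of these 4 rests on 1 probe set, and all are genes that hold cells before S phase. Ccnd1, cyclin D1, was higher by all 3 probe sets, 1.79-fold, 2.64-fold and 2.83-fold.

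Its partner kinase was lower. Cdk4 was lower by each of 3 probe sets, 2.84-fold, 4.1-fold and 5.24-fold, with 2837 and 999 by the brightest. Cdk6 was 1.72-fold and 3.23-fold lower. Ccne1, cyclin E1, was 5.19-fold lower by the probe set that read 1442 and 278 and 1.28-fold by the other, and Ccne2 read 310 and 126 (2.47-fold lower). E2f7 read 762 and 169 and was 4.51-fold lower, and Cdkn2c, the CDK4 inhibitor p18, read 610 and 233 and was 2.61-fold lower, so the inhibitors did not all point 1 way. For cyclins D2 and D3 the probe sets disagreed in sign, Ccnd2 from 1.79-fold lower to 1.51-fold higher by 6. Those of this family outside its 6 largest differences were chosen after their values were seen.

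**Figure D4:**
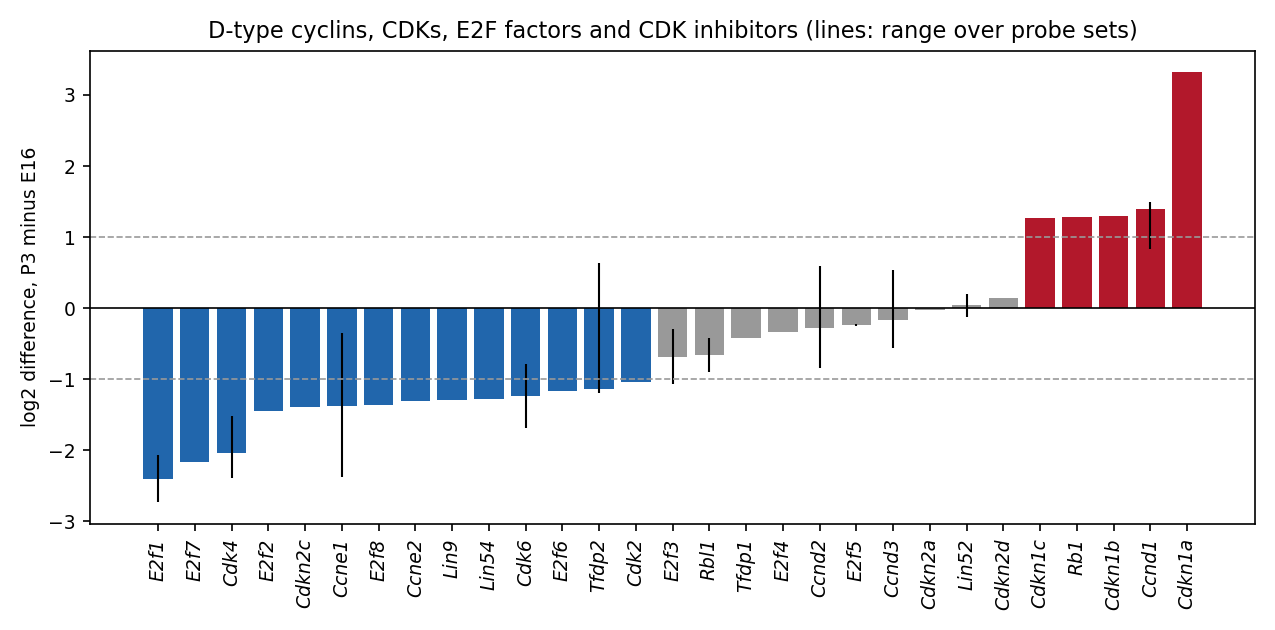
Log2 difference between P3 and E16 (y axis) of 29 measured regulators of entry into the cell cycle (x axis), blue where at least 2-fold lower, red where at least 2-fold higher and grey otherwise. Lines give the range over a gene's probe sets; Cdkn1a stands highest at 3.32 and E2f1 lowest at -2.40.

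Several lists of biosynthetic machinery had more lower genes than the 12.3% over all genes. Ribosome biogenesis genes had 21 of 51 lower (41.2%) and 0 higher (median -0.82), among them Rrp8 (1102 at E16 and 116 at P3, 9.46-fold lower), Rrs1 (2.92-fold and 8.08-fold by 2 probe sets) and fibrillarin, Fbl (2.75-fold and 4.88-fold). Aminoacyl-tRNA synthetases, which charge tRNAs, had 9 of 19 lower (47.4%) and 0 higher (median -0.98), led by Rars (2722 and 616, 4.42-fold lower) and Aars (2.54-fold and 5.03-fold). Asns, asparagine synthetase, was 3.17-fold and 4.2-fold lower, and Phgdh, the first enzyme of serine synthesis, was lower by each of 4 probe sets, 2.12-fold to 3.81-fold. Splicing factors and hnRNPs had 20 of 67 lower (29.9%) and 1 higher (median -0.65), with Prpf3 6.9-fold lower (1595 and 231). The proteasome had 13 of 44 lower (29.5%) and 0 higher (median -0.47), with Psmb7 5.98-fold lower (1591 and 266). Chaperonins and heat shock genes had 17 of 68 lower and 3 higher, with Cct7 3.66-fold and 5.84-fold lower. Translation initiation and elongation factors did not stand out, with 6 of 58 lower (10.3%) and 1 higher (median -0.31).

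The proteins of the ribosome itself did not follow. Cytosolic ribosomal protein genes had 6 of 49 higher and 3 lower, with a median of 0.29. Rps14 was 2.04-fold and 2.32-fold higher by its 2 probe sets, and Rpl12 read 970 and 245 and was 3.96-fold lower by 1. Rps24 shows how uncertain these genes are, as 4 probe sets were 2.5-fold to 3.94-fold higher, 1 was 1.28-fold lower and 1 was 4.38-fold lower. Ribosomal protein genes have many near-identical copies, and the probe sets cannot be taken to tell them apart. Mitochondrial ribosomal proteins had 13 of 72 lower and 4 higher (median -0.23), with Mrpl9 3.99-fold and 5.85-fold lower by 2 probe sets and 1.15-fold higher by the third.

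Lists of energy metabolism differed from each other. In glycolysis 7 of 19 genes were lower and 0 higher (median -0.77), and 3 of the 8 with several probe sets were lower by all. Tpi1, triose phosphate isomerase, was 3.79-fold, 3.87-fold and 5.66-fold lower, and the glucose transporter Slc2a1 2.32-fold, 3.39-fold and at least 4.88-fold. Pfkl, phosphofructokinase, was 10.9-fold and 6.89-fold lower by 2 probe sets but 1.18-fold by the third. Ldha, which makes lactate, read 3707 and 698 and was 5.31-fold lower by its 1 probe set. The TCA cycle had 5 of 21 lower (23.8%) and 1 higher (median -0.53). The respiratory chain had 4 of 91 higher and 6 lower, with a median of 0.15. Within it Ndufv1, a core subunit of complex I, was 3.27-fold, 3.54-fold and 3.9-fold lower, and Cox6a1, of complex IV, 1.92-fold and 2.54-fold higher. Cholesterol synthesis had 7 of 17 lower and 1 higher (median -0.83). Idi1 was 2.34-fold and 2.73-fold lower and Fdft1, squalene synthase, 2.43-fold and 4.82-fold. The 1 higher gene was Insig1, which restrains the pathway, with 129 and 538 (4.18-fold).

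**Figure D5:**
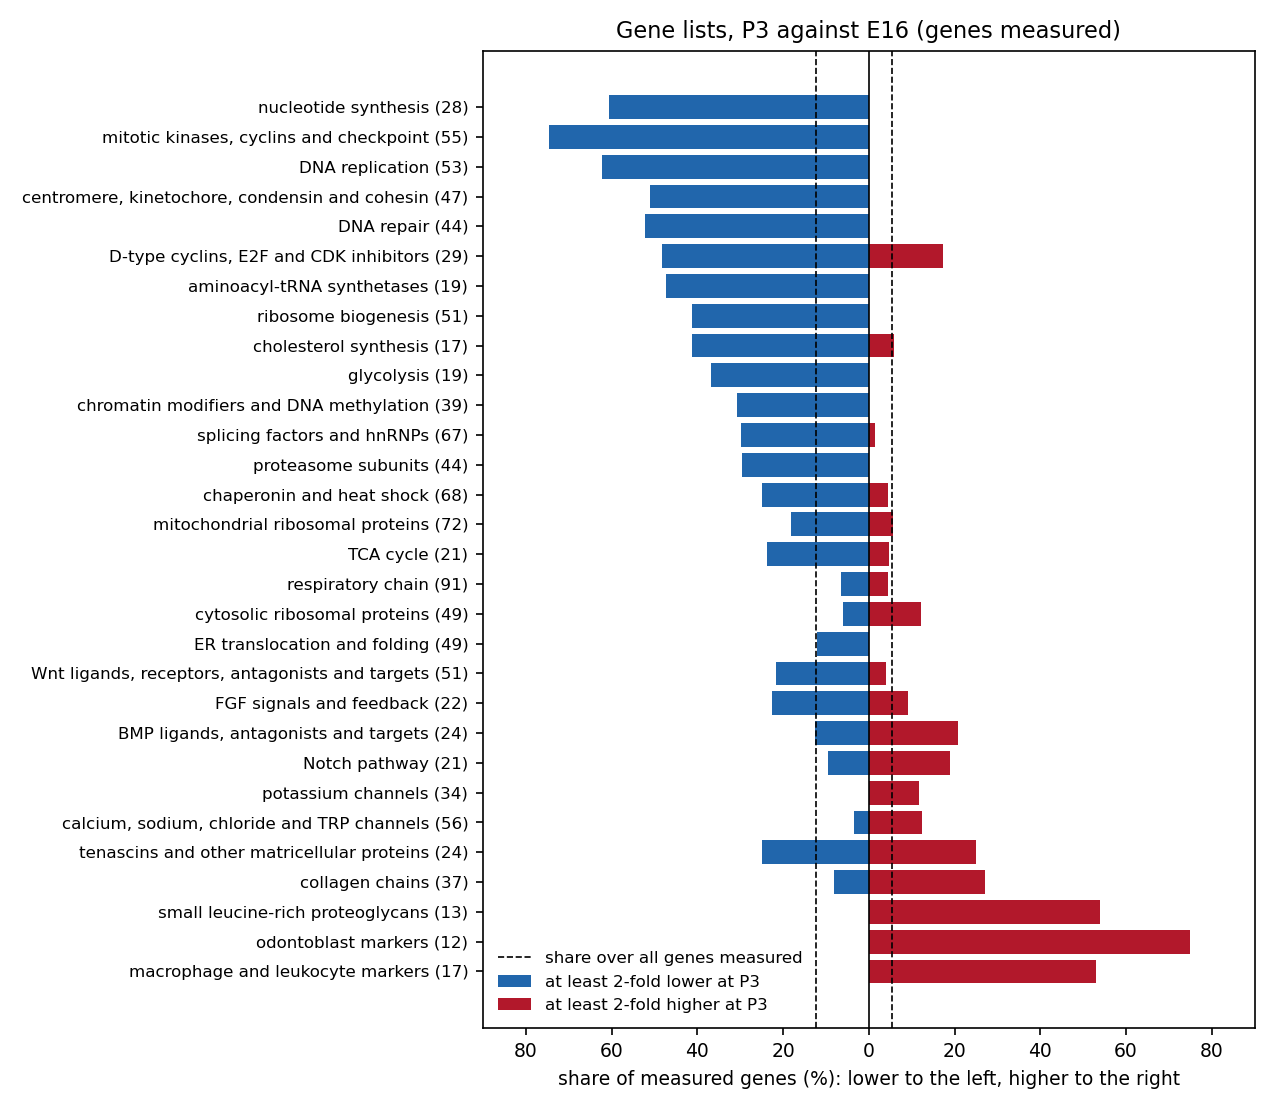
Share of measured genes (%, x axis) at least 2-fold lower (blue, to the left) and higher (red, to the right) at P3 in 30 gene lists (y axis, number of genes measured in brackets), with dashed lines at the shares over all genes, 12.3% lower and 5.38% higher. The cell cycle lists reach furthest left, 74.5% for mitotic genes, and the odontoblast markers furthest right, 9 of 12 genes.

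Transcription factors of tooth mesenchyme were more often lower. Of 28 measured tooth homeobox genes and partners, 11 were at least 2-fold lower and 3 higher (median -0.37). The shares were 39.3% and 10.7%, beside 12.3% and 5.38% over all genes. Lmo1, a LIM-only cofactor, read 1578 at E16 and 122 at P3 and was 12.9-fold lower. Eya1, a transcriptional cofactor, read 816 and 81.6 and was at least 9.95-fold lower, though 2 other probe sets did not reach the floor on either array. Lhx6, a LIM homeobox factor of dental mesenchyme, read 1675 and 364 and was 4.6-fold lower. The 3 higher genes were Dlx2 (294 and 989, 3.37-fold) and the Iroquois genes Irx3 (128 and 791, 6.19-fold) and Irx5 (63.8 and 821, at least 10-fold). The antisense transcript Dlx1as, named as such in the array annotation, read 4058 and 385 and was 10.5-fold lower, where Dlx1 itself read 847 and 387 and was 2.19-fold lower. Strand is set by the probes, and overlap between these transcripts was not examined. Msx1, a homeobox factor of the papilla, was 1.11-fold and 1.8-fold higher, under 2-fold.

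Other factor families gave single clear genes. Of 18 bHLH and Id genes 5 were higher (27.8%, beside 5.38% over all genes) and 1 lower (5.56%, beside 12.3%), with a median of 0.46. Hey1, a Notch target repressor, read 910 and 3440 (3.78-fold higher), and Heyl was 2.02-fold and 2.35-fold higher. Id1 and Id2, inhibitors of bHLH factors and BMP targets, read 82.7 and 173 and 655 and 1416, 2.1-fold and 2.16-fold higher. Id1 was near the floor at E16, and its log2 difference was 0.08 with a floor of 164.1. That of Id2 was 0.77 with a floor of 41.0 and 0.71 with none, under 2-fold. Twist1, the 1 lower gene, read 925 and 222 and was 4.16-fold lower. Sox9 was 3.03-fold higher by a probe set reading 172 and 522 and at least 2.23-fold by another. Klf4, a Kruppel-like factor, was 3.02-fold (616 and 1857) and at least 2.25-fold higher. In Klf9 3 of 4 measured probe sets were at least 3.09-fold higher and 1 was at least 1.08-fold lower.

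In BMP signalling, 5 of 24 genes were higher (20.8%) and 3 lower (12.5%, beside 12.3% over all genes; median 0.10), and the ligands differed in direction. Bmp2 read 136 at E16 and 1806 at P3 (13.3-fold higher), and Bmp8a 26.0 and 582 (at least 7.09-fold higher). Bmp4 read 977 and 354 and was 2.75-fold lower. Smad6, an inhibitor that BMP signals induce, read 216 and 1338 and was 6.2-fold higher, in the direction of Id1 and Id2. The 2-fold calls of Id1 and Id2 depended on the floor. The antagonists Fst, follistatin (3.85-fold and 6.4-fold by 2 probe sets), and Sostdc1, which acts on BMP and Wnt ligands (2.47-fold and 4.26-fold), were lower. Of 21 TGF-beta and activin genes 5 were higher (23.8%, beside 5.38% over all genes) and 3 lower (14.3%). Inhba, the activin A subunit, read 1084 and 115 and was 9.42-fold lower, as was its binding protein gene Fst. Tgfb2 was 4.79-fold, 6.45-fold and 7.78-fold higher by 3 probe sets and at least 1.17-fold by a dim one, and its receptor Tgfbr2 read 1149 and 2441 (2.12-fold higher; log2 difference 0.00 with no floor). Skil, a repressor of Smad signals, read 697 and 2155 (3.09-fold higher).

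Wnt genes were lower more often than all genes, 11 of 51 (21.6%, beside 12.3%), with 2 higher (3.92%, beside 5.38%; median -0.34). Besides Dkk1, the lower genes included the receptors Fzd1 (3514 and 807, 4.35-fold) and Fzd2 (1.58-fold, 2.88-fold and 4.7-fold by 3 probe sets) and the ligand Wnt9a (341 and 81.0, at least 4.15-fold). The secreted antagonist Frzb read 1809 and 502 (3.6-fold lower), and Axin2, a feedback target of the pathway, 566 and 251 (2.25-fold lower by 1 measured probe set; log2 difference -0.04 with no floor). Of 22 FGF genes 5 were lower (22.7%) and 2 higher (9.09%; median -0.34). Dusp6, a phosphatase induced by FGF signals, read 2052 and 466 and was 4.4-fold lower. Etv5 (535 and 211, 2.54-fold by 1 measured probe set, with 2 others under the floor) and Spry1 (998 and 418, 2.39-fold), both FGF response genes, were lower too, and so was the ligand Fgf3 (at least 1.48-fold, at least 3.08-fold and 3.49-fold by 3 probe sets). Of the hedgehog genes 1 of 17 passed 2-fold, Hhip, the hedgehog-binding protein, lower by all 3 measured probe sets (2.06-fold, 2.49-fold and 4.62-fold). Gli1, the target most used as a readout of the pathway, read 155 and 133 (1.17-fold lower).

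The Notch pathway had 4 of 21 higher and 2 lower (median 0.18). The ligand Dll1 read 335 and 1641 (4.89-fold higher) and the ligand Jag2 290 and 104 (2.79-fold lower). The receptor Notch3, also a marker of mural cells, read 881 and 1911 (2.17-fold higher), where Notch1 was 1.09-fold and 1.71-fold higher by its probe sets. Retinoic acid genes had 3 of 12 lower and 1 higher. Aldh1a2, which makes retinoic acid, read 726 and 29.8 (at least 8.86-fold lower) and the carrier Crabp2 760 and 122 (6.25-fold lower). Rdh10, the enzyme a step before Aldh1a2, was higher by both probe sets, 3.1-fold and 3.56-fold, so the steps of the pathway went opposite ways.

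Ion handling was higher at several points. Potassium channels had 4 of 34 higher and 0 lower (11.8%, beside 5.38% over all genes). Of the 34, 26 reached the floor at E16, and 3 of the 4 higher ones entered only through P3, where they are high. Kcnk2, a mechanosensitive background channel, read 56.5 and 517 (at least 6.3-fold), Kcnt2, a sodium-activated channel, 46.9 and 480 (at least 5.86-fold), and Kcnk6 263 and 614 (2.34-fold). Kcnn4, a calcium-activated channel, was at least 20.6-fold higher by a probe set reading 62.1 and 1694 and at least 1.64-fold by another. Calb1, the calcium buffer calbindin, read 68.9 and 6889 by its brightest probe set, at least 84-fold higher, and at least 1.01-fold, 1.96-fold and 12-fold by 3 others. Kcnn4 thus passed 2-fold by 1 of 2 measured probe sets and Calb1 by 2 of 4, and in neither did the probe sets give 1 size. Of 231 solute carriers 23 were higher (9.96%, beside 5.38% over all genes) and 20 lower (8.66%, beside 12.3%). Slc26a7, an anion transporter, read 210 and 2877 (13.7-fold higher), the citrate carrier Slc13a5 198 and 935 (4.72-fold) and the sugar carrier Slc2a12 101 and 604 (5.98-fold). The water channel Aqp1 read 134 and 884 (6.6-fold). Calbindin and Slc26a7 are also known from ameloblasts, whose markers are given next.

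Markers of other cells differed between the samples as well. The labelled tissue was present on both arrays, since all 14 measured dental mesenchyme markers reached the floor at both stages, 7 of them lower and 2 higher at P3 (median -1.01; summed signal 16322 at E16 and 11750 at P3). Of 17 measured markers of dental epithelium and ameloblasts 5 were higher and 2 lower (median 0.25), and their summed signal was 10158 and 18184. The 5 higher ones are enamel genes, among them the enamel protease Mmp20 (48.1 and 2367, at least 28.9-fold), Enam (9.3 and 936, at least 11.4-fold) and Ambn (826 and 5377, 6.51-fold). Of the structural genes on that list, Krt5 read 2069 and 752 (2.75-fold lower), Krt14 598 and 442 by its brightest probe set and Cdh1, E-cadherin, 277 and 386 (1.4-fold higher). In a wider list of keratins, desmosomes and tight junctions 3 of 46 were higher and 8 lower (median -0.26). Epithelial genes were thus read on both arrays, with enamel genes the higher ones at P3, and their part in the differences above was not tested.

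Of 17 measured macrophage and leukocyte markers 9 were higher (52.9%, beside 5.38% over all genes) and 0 lower. Their median was 1.23, with summed signals of 3765 and 10804. Of the 20 on the array 11 reached the floor at E16 and 16 at P3, and a marker under the floor at E16 cannot read as lower. Mrc1, the mannose receptor, read 93.3 and 1804 (19.3-fold higher), and Csf1r, the receptor for colony-stimulating factor, was 1.36-fold, 2.82-fold and 3.17-fold higher. Ptprc, CD45, shared by all leukocytes, read 149 and 186 (1.25-fold higher). Erythroid markers were lower, 3 of 5 with 0 higher (median -2.12, or -0.69 with no floor and -0.73 without probe sets that may detect several transcripts) and summed signals of 4078 and 810. Alas2, the erythroid haem synthesis enzyme, read 763 and 116 (6.6-fold lower) and Tfrc, the transferrin receptor, which dividing cells also make, 2385 and 547 (4.36-fold lower).

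Endothelial markers differed little as a list, with 1 of 15 higher and 1 lower (median -0.22) and summed signals of 5805 and 4100. Vwf, von Willebrand factor, read 54.0 and 436 (at least 5.31-fold higher) and Kdr, a VEGF receptor, 2571 and 846 (3.04-fold lower). For mural cells 1 of 10 markers was higher and 0 lower (median -0.24; 6566 and 8781), and for osteoclasts 2 of 6 were lower and 0 higher (median -0.65; 3491 and 3273). For cartilage 4 of 11 were higher and 0 lower (median 0.67; 3201 and 4835), but 4 of the 11 reached the floor at E16 and the other 7 could not come out lower. Their defining genes were near the floor, Col2a1 at 50.5 and 89.1 and Acan at 60.1 and 201. Bone markers were measured for 3 genes, with Omd higher and Ibsp lower, and Schwann cell markers for 5 (1 higher, median 0.09; 977 and 1438). Skeletal muscle markers were mostly under the floor, 9 of 12 on both arrays, Acta1 at 11.5 and 9.9. The part of these cells in any difference given here was not tested.

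Genes whose probe sets disagreed mark the limit of the data. In 44 genes (0.868% of 5071) probe sets passed 2-fold in opposite directions. Hnrnpab, an RNA-binding protein, had 5 measured probe sets from 1.01-fold to 3.05-fold lower and 1 that read 166 at E16 and 2124 at P3, 12.8-fold higher. Prkar1a, a regulatory subunit of protein kinase A, was 2.49-fold lower where it read 2401 and 964 and 5.57-fold higher where it read 226 and 1257, and Cdc42 was 3.07-fold lower and 4.4-fold higher. Slc6a6, the taurine transporter, was 4.18-fold lower and 3.38-fold higher. For these genes the median over probe sets does not stand for the gene. Among genes with 1 measured probe set, where no such check exists, the highest were Dspp, Scin, an actin-severing protein (126 and 4031, 32-fold), Mmp20, Mrc1 and Rcan2, a calcineurin regulator (57.9 and 1581, at least 19.3-fold). The lowest were Lmo1, Col26a1, Dlx1as, Ctdp1, a phosphatase of RNA polymerase II (829 and 73.2, at least 10.1-fold), and Eya1.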

How the data were processed

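Papilla RNA from 2 stages was hybridised to 1 array each. Per the submitters' processing notes the arrays were read with GCOS (the Affymetrix operating software); no source used here gives its version or scaling. The deposited values are ratios to the middle of a probe set's 3 arrays, found from the values themselves: that middle value was 1 in 90.4% of probe sets, and otherwise the divisor was 10. The planned test assumed signals, so signals were recovered from the ratios as whole steps of 0.1 (tolerance 3e-07) and log2 differences were taken from those. Recovery and calls were tested on simulated data.

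Probe sets were named from GEO's platform annotation, 34958 with 1 gene symbol, and the 932 with several were not used for genes. Values under the floor of 82.0 were set to it. The members and the 93 gene lists were chosen with earlier results of these data known, and symbols that only look like members of a family were dropped after values were seen. Named genes are the 15 highest and 15 lowest by every probe set, per list up to 6 of the largest differences past 2-fold and up to 2 best known members, the 5 with the widest opposite calls, and the 5 highest and 5 lowest with 1 probe set. Other named genes were chosen after their values were seen, to complete a family or a count. Promoters are RefSeq's (GRCm38.p6). Alternatives changed the floor, the scaling, the probe sets kept and the value of a gene. No test across samples was possible with 1 array per stage. Python 3.11.15, numpy 2.4.6, pandas 2.3.3, scipy 1.17.1 and matplotlib 3.10.9 were used.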

Additional observations from a re-analysis of the deposited data

How the results depend on the processing

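The counts depended most on the floor and on the scaling. With no floor, 5862 probe sets were 2-fold higher and 7211 lower, 1956 genes higher and 2446 lower, and 201 genes higher by every probe set; this setting admits signals near background. With a lower floor of 41.0, 2412 probe sets were higher, and with a floor of 164.1, 966. Quantile normalization gave 1000 genes higher and 1005 lower, of which 658 and 1005 were called in the same direction as reported, and 152 higher and 121 lower by every probe set. Setting the median of all genes to 0, an alternative chosen after seeing the data, gave 890 genes higher and 1102 lower. Without probe sets that may detect several transcripts, 50 genes were higher and 113 lower by every probe set, where fewer probe sets remain. The other 39 of 52 counts stayed within 1.5 times.

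The median of the SIBLING list turned from 1.04 to -1.82 with only probe sets at the floor on both arrays, where Ibsp alone was left, and to -0.96 without probe sets of several transcripts. The erythroid median moved to -0.69 with no floor and -0.73 without those probe sets, and the odontoblast median to 1.12 at the floor on both arrays and 0.85 by the least changed probe set. Single genes turned direction where dim probe sets entered, Etv5 to 0.41 with the lower floor and 0.43 with none and Tfrc to 0.03 with none. Of 211 named genes past 2-fold, 11 were no longer past it with the lower floor and 17 with none, among them Eya1 (-0.38 and -0.82), Cemip (0.46 with either), Col25a1 (0.79 and 0.72), Jag2 (-0.80 with either), Loxl4 (0.44 with either) and Wnt9a (-0.94 with either), and with no floor also Dbf4 (-0.90), Axin2 (-0.04), Tgfbr2 (0.00), P4ha1 (-0.31), Nr1d2 (0.30), Rb1 (0.65) and Cdkn1b (0.76). The numbers were 19 with the higher floor, 25 by the least changed probe set and 7 after quantile normalization. Rps24 turned to -1.24 without probe sets of several transcripts and to -0.36 by its least changed probe set, by which Klf9 turned to -0.11 and Mrpl9 to 0.20. Where no construction is given, the cause was not tested. No paired analysis was possible because each stage has 1 array. Signal over background limits genes near the floor, where a difference is only a bound.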

Other observations

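Genes of the interferon response and of MHC class I had 9 of 41 at least 2-fold higher (22.0%, beside 5.38% over all genes) and 1 lower (median 0.22). Of the 41, 33 reached the floor at E16, and the others could not come out lower. Ifitm1, a membrane protein that restricts virus entry and is also made in developing tissue, read 89.9 at E16 and 877 at P3 and was 9.77-fold higher, and Ifitm2 read 199 and 564 (2.84-fold higher). The guanylate-binding protein gene Gbp2 was at least 2.36-fold and at least 3.02-fold higher. Ifit2, in contrast, read 482 and 112 and was 4.29-fold lower, so the list did not move as 1. Complement and innate immunity genes had 7 of 19 higher (36.8%, beside 5.38%) and 0 lower (median 0.24). Of the higher ones 3, C1qa, C1qb and Cd14, are also among the macrophage markers that were higher. C2, a complement protease, was at least 3.53-fold, at least 4.53-fold and at least 6.61-fold higher by 3 probe sets, and Serping1, the C1 inhibitor, read 230 and 689 (3-fold higher). Of the 19 genes 11 reached the floor at E16, the other 8 could not come out lower, and the part of leukocytes in these values was not tested.

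Of 10 clock genes 2 were higher and 1 lower. Dbp, an output gene of the clock, read 122 and 444 (3.64-fold higher), Nr1d2, a clock repressor, 365 and 865 (2.37-fold higher) and Per1 351 and 111 (3.16-fold lower). The hour of collection is not in the labels. Guidance genes were mixed, with 4 of 27 semaphorins, plexins and neuropilins higher and 1 lower (median -0.03, or 0.30 after quantile normalization), among them Plxnd1 (2.93-fold higher), and 3 of 17 ephrins and Eph receptors lower and 0 higher (median -0.57), led by Efna5 (1292 and 500, 2.58-fold lower). Slit2, a repellent ligand, was 2.72-fold and 3.34-fold lower by 2 probe sets, and Robo2, a receptor for it, read 709 and 205 (3.46-fold lower). On the X chromosome 12 of 419 genes were higher (2.86%) and 60 lower (14.3%), with a median of -0.21. The higher share was 3.01% to 7.28% on each autosome, and 12.3% of all genes were lower. The lower share was 10.2% on chromosome 19 and 14.5% on chromosome 16, and the medians of chromosomes 7 and 18 were -0.11 and -0.22. The lower share and the median of the X chromosome were thus within the spread of the autosomes. The Y-linked genes Eif2s3y (409 and 453) and Kdm5d (132 and 340) and the X-inactivation transcript Xist (2068 and 1519 by its brightest probe set) reached the floor on both arrays.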
